A study of Mus musculus with 8 samples.

Results

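The genes described here encode the protein subunits of the mitochondrial ribosome. They were chosen by name, as the genes in the array annotation whose symbol starts with Mrpl (large subunit) or Mrps (small subunit) followed by a digit. The annotation held 76 such symbols, and 74 of them, out of 12393 genes measured with 1 probe set each, had a probe set of their own. Mrpl30 and Mrpl53 were named only on probe sets that also named another gene and were not used. Where a gene had several probe sets, the one with the highest mean over the 8 arrays was taken.

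RNA was taken from splenic CD4 T cells, sorted by flow cytometry, of female mice 8 to 12 weeks old. The animals were C57BL/6 wild type (WT) or carried a knockout of the aryl hydrocarbon receptor (AHR ko, here KO) backcrossed to C57BL/6. They received an intraperitoneal injection of the receptor's ligand TCDD (dioxin) at 10 µg/kg in corn oil, or of the solvent DMSO in corn oil, with spleens collected 24 h later. Genotype and treatment together made 4 groups, WT DMSO, WT TCDD, KO DMSO and KO TCDD, with 2 Affymetrix MOE430A arrays in each group. The submitters call these biological duplicates, each a pool of 4 animals. The labels give neither the exons deleted nor a cell type restriction of the knockout.

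The mitochondrial ribosome translates the few messenger RNAs of the mitochondrial genome, whose products are subunits of the respiratory chain and ATP synthase. Its proteins are encoded in the nucleus, made in the cytosol and imported. Some descend from bacterial ribosomal proteins and others exist only in mitochondria. In T cells, mitochondrial translation is known to support growth and effector function after activation. The aryl hydrocarbon receptor is a transcription factor that enters the nucleus when it binds a ligand such as TCDD, pairs with ARNT and binds the motif GCGTG.

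The 74 members comprised 28 large-subunit proteins with a known bacterial counterpart, 21 large-subunit proteins specific to mitochondria, 16 small-subunit proteins with a bacterial counterpart and 8 small-subunit proteins specific to mitochondria. The second class includes Mrps18a and Mrps30, which sit in the large subunit despite their symbols. Mrps36 was kept apart, since its protein is now known as a component of the 2-oxoglutarate dehydrogenase complex.

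Promoters are printed for the members whose 4 KO arrays did not overlap the 4 WT arrays, since those differences lead the comparison of genotypes. Each line gives the 150 bases just before the annotated transcription start, 5′ to 3′ on the gene's strand, from RefSeq on GRCm38.p6. Capitals mark the matches, on either strand, to the motifs searched for: GCGTG (core of the receptor's response element), GCATGCG (core of the NRF1 motif), CCGGAAG (ETS and GABP motif) and AAGATGG (YY1 motif).
Mrps11, chr7:78782981-78783130, plus strand: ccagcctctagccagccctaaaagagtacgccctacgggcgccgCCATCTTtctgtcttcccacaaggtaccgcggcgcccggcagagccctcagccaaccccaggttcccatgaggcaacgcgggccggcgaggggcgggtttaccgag
Mrps7, chr11:115603990-115604139, plus strand: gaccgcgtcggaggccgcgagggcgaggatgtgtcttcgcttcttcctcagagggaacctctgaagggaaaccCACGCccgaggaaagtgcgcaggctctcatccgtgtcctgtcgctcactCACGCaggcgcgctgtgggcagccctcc
Mrpl12, chr11:120484487-120484636, plus strand: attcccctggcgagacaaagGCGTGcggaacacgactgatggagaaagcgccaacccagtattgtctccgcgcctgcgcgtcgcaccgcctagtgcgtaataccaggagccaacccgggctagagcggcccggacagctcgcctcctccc
Mrps18a, chr17:46110854-46111003, plus strand: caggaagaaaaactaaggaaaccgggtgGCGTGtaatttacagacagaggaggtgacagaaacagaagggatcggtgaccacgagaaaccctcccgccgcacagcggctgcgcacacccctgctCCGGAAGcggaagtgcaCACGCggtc
Mrpl47, chr3:32736756-32736905, minus strand: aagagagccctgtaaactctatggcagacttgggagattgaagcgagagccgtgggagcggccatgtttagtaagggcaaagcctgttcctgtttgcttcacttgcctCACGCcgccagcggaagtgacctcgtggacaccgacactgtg

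The Mrps11 stretch holds 1 match, to AAGATGG on the opposite strand. Mrps7 has 2 matches to GCGTG and Mrpl12 and Mrpl47 have 1 each. Mrps18a has 2 matches to GCGTG and 1 to CCGGAAG. No promoter entry was matched for Mrpl38.

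In windows from 250 bases before to 50 bases after the start, 34 of the 65 members with a RefSeq promoter held GCGTG (52.3%), against 46.4% of the 9882 promoters of genes on the array and 32.5% of all 27025 promoters. GCATGCG was in 8 members (12.3%), against 5.59% for the genes on the array and 3.64% of all promoters. CCGGAAG was in 23 members (35.4%), against 15.0% and 9.12%. AAGATGG was in 12 members (18.5%), against 6.89% and 6.48%. None of the 4 motifs contains another, though matches can share bases. The median GC content was 58.0% in members, 59.3% for genes on the array and 52.7% for all promoters. A match is a description of the letters and not evidence of binding. The median KO minus WT difference was -0.01 on the log2 scale both in the 34 members with GCGTG and in the 31 without. After TCDD in WT, 33 of the 34 members with GCGTG read lower (97.1%) and 24 of the 31 without (77.4%), a contrast that was not tested. Among all genes with a promoter entry, 48.6% of those with GCGTG and 39.9% of those without read lower in that comparison. Leaving out WT TCDD replicate 1, the members' shares were 67.6% and 58.1%. In KO, 27 of 34 and 28 of 31 read higher.

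The sort was read from marker genes. All 6 measured CD4 T cell markers read at or above the median probe set level of 6.13, and none of them differed between genotypes at the threshold (Cd4 averaged 8.16 in KO and 8.37 in WT). Of the 7 measured myeloid and dendritic cell markers, 5 were called higher in KO (limma, Benjamini-Hochberg adjusted p from 0.00424 to 0.0448), and the log2 of their summed level ran from 10.98 to 11.90 in KO and from 9.77 to 10.18 in WT. Among 6 NK and CD8 T markers Nkg7 was called higher in KO, while Cd8a, Cd8b1 and Ncr1 lay below the median level. The 6 measured B and plasma cell markers gave no call, and neither did the 2 erythroid markers. Of the former, 3 read higher and 3 lower in KO, and Cd79a, Ms4a1 and Blk lay below the median level. Jchain had the largest difference, at 9.49 in KO and 8.06 in WT (limma adjusted p = 0.192). The log2 of the summed level of these 6 ran from 9.49 to 10.90 in KO and from 8.715 to 9.84 in WT. Of 2 Ahr probe sets, the first averaged 6.74 ± 0.26 in KO and 6.21 ± 0.10 in WT, and the second 6.52 ± 0.23 and 6.48 ± 0.14 (SD, n = 4). Ahr was therefore not lower on the arrays labelled KO. The position of these probes relative to the deleted part is unknown here, so they do not check the genotype. One array, WT TCDD replicate 1, is described in its free text as KO, whereas its title, source and strain say WT. It was analysed as WT. Beside the results, several of the counts are given again without it, as are the members that moved most.

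The first comparison asked how loss of the receptor bears on these genes, with both treatments pooled as the design text describes (4 KO arrays against 4 WT arrays). None of the 74 members was called at a limma Benjamini-Hochberg adjusted p under 0.05 over all 22626 probe sets, against 3.24% of the 12393 genes (401). Members read higher in KO in 37 cases, lower in 36, and Mrpl16 had equal means. Their median difference was 0.01, and that over all genes also rounded to 0.01 (0.005). The members' differences ran from -0.44 to 0.64, with a median standard error of 0.15. At an unadjusted limma p under 0.05, 11 members read higher and 2 lower (background 10.6% and 11.6% of genes in those directions). With WT TCDD replicate 1 left out, the median was -0.04, with 33 members higher and 41 lower. In that setting 6 higher and 4 lower passed the unadjusted threshold (background 11.1% and 13.5%). The split by sign depended on the arrays kept. It was 46 higher and 28 lower without KO DMSO replicate 2 (median 0.09). Without WT DMSO replicate 2 it was 46 and 27 (median 0.08). Leaving out any other single array gave 36 to 42 higher and 32 to 38 lower. Without both WT arrays numbered 2, 54 read higher and 20 lower (73.0% higher, beside 44.5% of all genes), with a median of 0.14.

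By class of subunit the counts were as follows. Of the 28 conserved large-subunit members, 8 read higher and 19 lower in KO (median -0.08). Of the 21 large-subunit members specific to mitochondria, 15 read higher and 6 lower (median 0.20). The small subunit gave 9 higher and 7 lower among conserved proteins (median 0.03) and 5 higher and 3 lower among the mitochondria-specific ones (median 0.13). The differences between classes were not tested.

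**Figure D1:**
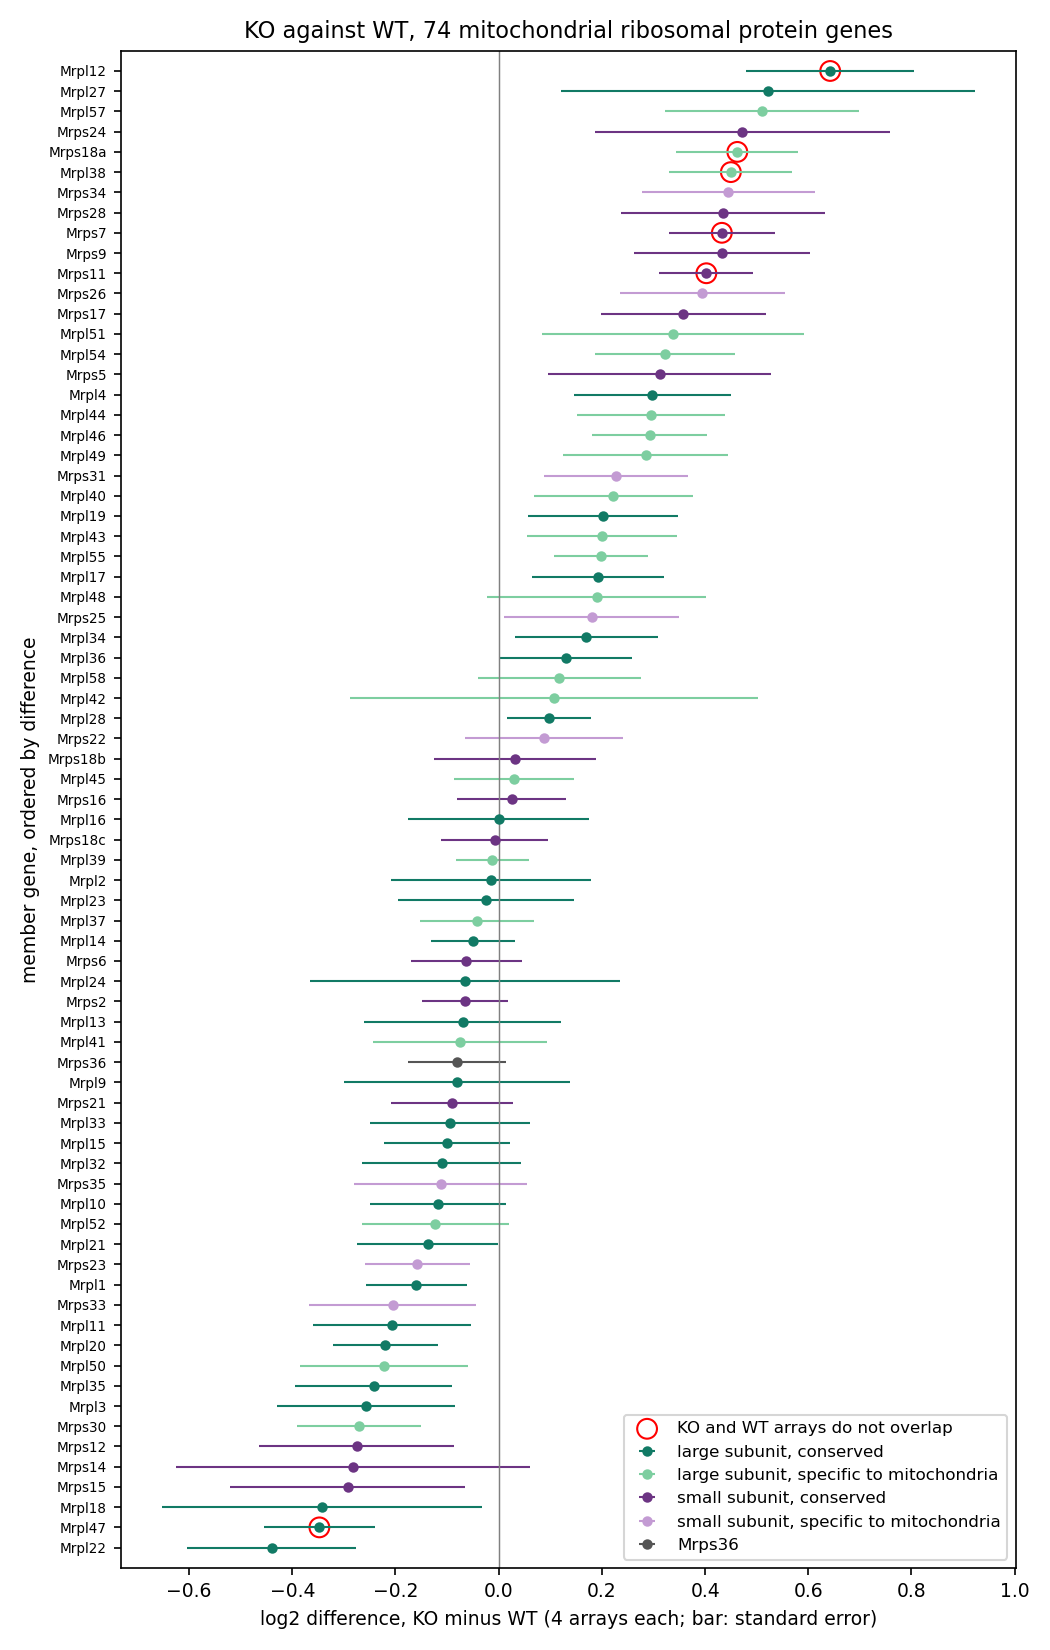
KO minus WT difference (log2) of each of the 74 members, ordered by size and coloured by class, with standard errors from limma as bars (4 KO and 4 WT arrays) and a red ring where the genotypes did not overlap. The points run from -0.44 for Mrpl22 to 0.64 for Mrpl12, on both sides of 0, and none was called.

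In 5 members every KO array read above every WT array: Mrpl12, Mrpl38 and Mrps18a of the large subunit and Mrps7 and Mrps11 of the small subunit. That is 6.76% of members, beside 6.28% of all genes (8.26% of genes at or above the median level). In 1 member, Mrpl47, every KO array read below every WT array (1.35%, beside 6.71% of all genes and 8.86% of those at or above the median level). The share on the high side is near the background and that on the low side is below it. With WT TCDD replicate 1 left out, 6 members lay above (8.11%, beside 9.72% of all genes) and 4 below (5.41%, beside 10.5%).

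Mrps11 encodes a small-subunit protein with a bacterial counterpart, and it had the lowest adjusted p of the members. It read 6.61 and 6.73 on the KO DMSO arrays, 6.99 and 6.84 on KO TCDD, 6.44 and 6.35 on WT DMSO and 6.40 and 6.37 on WT TCDD. The 4 WT arrays lay close together and all below the KO arrays, of which the TCDD pair was the higher. KO arrays averaged 6.79 ± 0.16 and WT arrays 6.39 ± 0.04 (SD, n = 4), a difference of 0.40 (SE 0.09, 95% interval 0.20 to 0.61, 1.32-fold) at a limma Benjamini-Hochberg adjusted p of 0.0549. A dimmer probe set of the same gene read the other way, at 4.44 in KO and 4.78 in WT (limma adjusted p = 0.101).

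Mrps7 encodes a conserved protein of the head of the small subunit. It read 7.48, 7.72, 7.73 and 7.79 on the KO arrays (DMSO, then TCDD) and 7.44, 7.29, 7.09 and 7.17 on the WT arrays. The closest approach of the genotypes was between their DMSO arrays numbered 1. The difference was 0.43 (SE 0.10, limma adjusted p = 0.0637).

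Mrpl12, the stalk protein that is also known to bind the mitochondrial RNA polymerase, had the largest difference of the members. It read 8.11 and 8.13 on KO DMSO, 8.45 and 8.28 on KO TCDD, 7.61 and 8.02 on WT DMSO and 7.55 and 7.22 on WT TCDD. The KO arrays were close together, and WT DMSO replicate 2 came near them while the other WT arrays stood well below. The means were 8.24 ± 0.16 and 7.60 ± 0.33 (SD, n = 4), a difference of 0.64 (SE 0.16, 95% interval 0.27 to 1.01, 1.56-fold) with a limma adjusted p of 0.0736.

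Mrps18a and Mrpl38, both specific to the mitochondrial large subunit, were the remaining members without overlap on the high side. Mrps18a read 6.60, 6.95, 6.78 and 6.43 in KO and 6.33, 6.27, 6.22 and 6.09 in WT. Its difference was 0.46 (SE 0.12, limma adjusted p = 0.0753), and unlike the members above its KO TCDD arrays averaged below its KO DMSO arrays. Mrpl38 read 6.83, 6.58, 6.86 and 6.81 in KO and 6.49, 6.36, 6.42 and 6.01 in WT, a difference of 0.45 (SE 0.12, limma adjusted p = 0.0816). Its probe set is of a type whose probes may also match other genes, and a second, dim probe set read 4.24 in KO and 4.27 in WT. The myeloid marker sum given above separated the genotypes in the same direction as these members. Its part in their differences was not tested, and for these bulk samples a different mix of cells and a different amount of RNA per cell cannot be told apart.

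Mrpl47, a conserved large-subunit protein, read 7.05, 6.88, 7.15 and 7.31 in KO and 7.33, 7.59, 7.38 and 7.48 in WT. The gap between the genotypes was narrow, from 7.31 on KO TCDD replicate 2 to 7.33 on WT DMSO replicate 1. The difference was -0.35 (SE 0.11, 95% interval -0.59 to -0.11, limma adjusted p = 0.115).

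**Figure D2:**
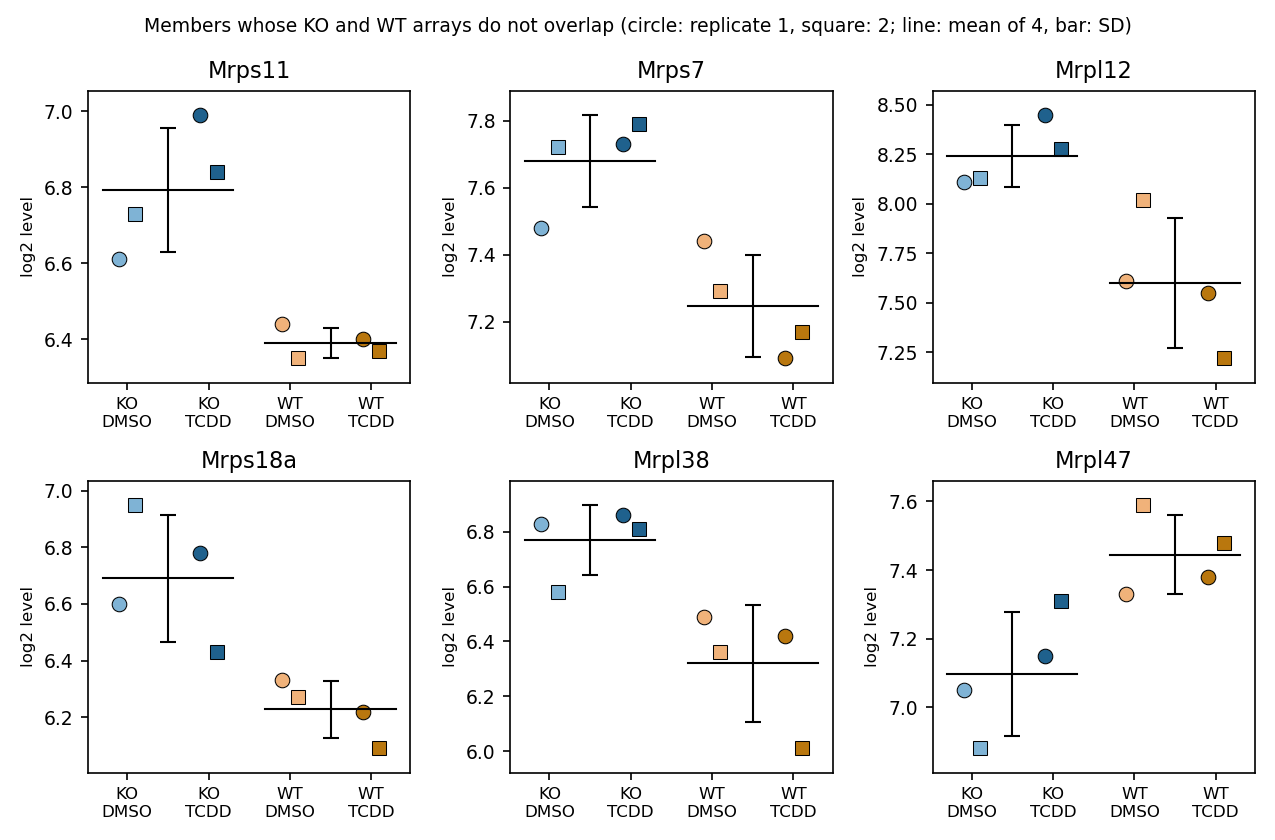
Level (log2, RMA) on each of the 8 arrays for the members whose KO and WT arrays did not overlap, with 1 point per array (circle for replicate 1, square for replicate 2), and the mean and SD of the 4 arrays of a genotype as line and bar. In Mrps11 the KO arrays lie from 6.61 to 6.99 and the WT arrays from 6.35 to 6.44, and only Mrpl47 has its KO arrays on the low side.

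Other members had large mean differences with overlapping arrays. Mrpl57, a mitochondria-specific large-subunit protein, read 8.98 and 9.02 on KO DMSO, 9.71 and 9.47 on KO TCDD, 8.99 and 8.96 on WT DMSO and 8.72 and 8.47 on WT TCDD. The DMSO arrays of both genotypes were alike, while the TCDD arrays stood apart. The difference was 0.51 (SE 0.19, limma adjusted p = 0.171). Mrpl27, a conserved protein near the peptidyl transferase centre, differed by 0.52 with an SE of 0.40. Its WT TCDD replicate 1 read 7.07 and the other 3 WT arrays 8.38 to 9.17, and the difference was 0.095 without that array. Mrps24, of the small subunit, differed by 0.47 (SE 0.29), with WT TCDD replicate 2 lowest at 7.64 and the KO TCDD arrays highest at 9.23 and 9.04. Its difference was 0.26 with WT TCDD replicate 2 left out and 0.31 with KO TCDD replicate 1 left out. The Mrps24 probe set, like that of Mrpl38, is of a type whose probes may also match other genes.

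On the low side, Mrpl22, a conserved protein that lines the exit tunnel, read 8.68, 8.35, 8.23 and 8.74 in KO and 9.04, 9.23, 8.59 and 8.90 in WT. Among the WT arrays only WT TCDD replicate 1 lay within the KO range, and the difference was -0.44 (SE 0.16, limma adjusted p = 0.173). Mrpl18, another conserved large-subunit protein, differed by -0.34 (SE 0.31). The small-subunit members Mrps15 and Mrps14 differed by -0.29 (SE 0.23) and -0.28 (SE 0.34), with WT DMSO replicate 2 high in both, at 8.31 and 10.17. Leaving out single arrays moved these 3 differences within -0.58 to -0.19, -0.48 to -0.07 and -0.63 to -0.09, at the far end without WT TCDD replicate 1 in each. Mrpl18 and Mrps15 came nearest 0 without WT DMSO replicate 2, and Mrps14 without WT TCDD replicate 2. All 3 turned positive when both WT arrays numbered 2 were left out, at 0.07, 0.03 and 0.26. Mrps30 of the large subunit differed by -0.27 (SE 0.12, limma adjusted p = 0.248), or by -0.16 without KO DMSO replicate 2. Mrps36 differed by -0.08 (SE 0.10), with a range of -0.14 to -0.04 when single arrays were left out.

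The members' median difference was not alike in the 2 treatments. From the DMSO arrays alone the members' median was -0.14, with 19 higher and 55 lower in KO, and from the TCDD arrays alone it was 0.22, with 56 higher and 18 lower. Among genes at or above the median level, 54.1% read lower in KO on the DMSO arrays and 50.1% read higher on the TCDD arrays. The next comparisons therefore give each treatment effect apart.

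The comparison of TCDD with DMSO in WT animals asked what the ligand does where its receptor is present. No gene on the array was called (0.0% of genes, and 0 of 74 members), and the limma adjusted p was 0.997 for every member. At an unadjusted limma p under 0.05, 5 members read lower and none higher (background 1.54% of genes lower and 1.44% higher). By sign alone, 64 members read lower and 10 higher (86.5% lower, against 42.7% of all genes and 52.7% of genes at or above the median level). Their median was -0.20, beside 0.03 over all genes and about -0.02 over those at or above the median level. Both TCDD arrays read below both DMSO arrays in 23 members (31.1%, beside 10.2% of all genes and 13.0% of those at or above the median level). They read above both in none (background 19.8% and 13.8%). With WT TCDD replicate 1 left out, its partner alone read below both DMSO arrays in 34 members (45.9%, beside 31.1% of all genes) and above them in 9 (12.2%, beside 33.5%). By class, 21 of 28 and 20 of 21 large-subunit members and 15 of 16 and 7 of 8 small-subunit members read lower, conserved ones first. Without that array the counts were 15 and 17, and 12 and 5.

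The lowest differences in WT were those of Mrpl42, Mrpl27 and Mrps15. Mrpl42, a mitochondria-specific large-subunit protein, read 8.00 and 8.99 on WT DMSO and 6.86 and 8.40 on WT TCDD. Replicate 1 of WT TCDD alone was below the DMSO arrays, and the difference was -0.87 (SE 0.55, limma unadjusted p = 0.162). It was -0.095 without that array and -0.37 without WT DMSO replicate 2. Mrpl27 followed at -0.85 (SE 0.55), from 8.38 and 9.17 on DMSO and 7.07 and 8.79 on TCDD, and Mrps15 at -0.60 (SE 0.28), from 7.55 and 8.31 to 7.07 and 7.60. Without WT TCDD replicate 1 the Mrpl27 difference was 0.015 and that of Mrps15 -0.33. Mrps15 read -0.215 without WT DMSO replicate 2, and Mrpl27 -0.45. The highest were Mrps34 at 0.21, Mrpl11 at 0.19 and Mrpl20 at about 0.18 (SE 0.23, 0.24 and 0.13), and without WT TCDD replicate 1 these read -0.01, 0.54 and 0.03. Mrpl11 read -0.16 without WT TCDD replicate 2. Lowest without WT TCDD replicate 1 were Mrps24 at -0.71 and Mrpl12 at about -0.60.

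In KO animals the same comparison asked what remains of the TCDD effect without the receptor. Again no gene was called (0.0%, 0 of 74 members). Here 63 members read higher after TCDD and 11 lower (85.1% higher, against 56.8% of all genes and 59.8% of those at or above the median level), with a median of 0.16 beside 0.03 for all genes. At an unadjusted limma p under 0.05, 9 members read higher and none lower (background 1.79% of genes higher and 0.153% lower). Both TCDD arrays read above both DMSO arrays in 33 members (44.6%, beside 20.4% of all genes and 21.0% of those at or above the median level). They read below both in none (background 6.94% and 6.89%). Without KO DMSO replicate 2 the counts were 37 of 74 above and 16 of 74 below. Over all genes they were 5442 of 12393 above and 3346 of 12393 below. Among genes at or above the median level the shares were 37.6% and 34.6%.

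The highest differences in KO were those of Mrps24, Mrps28 and Mrpl57. Mrps24 read 8.55 and 8.17 on KO DMSO and 9.23 and 9.04 on KO TCDD, a difference of 0.78 (SE 0.35). Mrps28, another small-subunit protein, read 6.95 and 6.37 on DMSO and 7.28 and 7.24 on TCDD, a difference of 0.60 (SE 0.20), or of 0.31 without KO DMSO replicate 2. Mrpl57 differed by 0.59 (SE 0.14), and in these 3 genes both TCDD arrays lay above both DMSO arrays. Lowest were Mrpl18 at about -0.26, Mrps18a at -0.17 and Mrpl32, a conserved large-subunit protein, at -0.16. Mrpl18 read 6.92 and 5.79 on the DMSO arrays, so that its difference turned to 0.31 without KO DMSO replicate 1 and was -0.82 without KO DMSO replicate 2. Mrps18a and Mrpl32 also turned, to 0.005 without KO DMSO replicate 2 and to 0.025 without KO DMSO replicate 1.

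The treatment effects of the genotypes come from separate arrays, and 54 of 74 members read lower after TCDD in WT and higher in KO (73.0%, against 26.2% of all genes and 32.6% of those at or above the median level). The reverse held for 1 member, 10 read lower in both genotypes and 9 higher in both. The opposite directions held without WT TCDD replicate 1 in 44 members (59.5%, beside 33.2% of all genes), and without KO DMSO replicate 2 as well in 37 of 74 (beside 28.7%). The difference of the TCDD effects (KO minus WT, an interaction term in limma) had a median of 0.40 over members, beside 0.005 over all genes and 0.07 over those at or above the median level. It was above 0 in 70 members (94.6%, against 50.1% of all genes and 58.5% at or above the median level). None of the interaction terms was called (0 of 74, background 0.0%). At an unadjusted limma p under 0.05 there were 14 members, all above 0 (background 2.49% of genes above 0 and 0.508% below). Without WT TCDD replicate 1 there were 13, all above 0 (background 4.23% and 1.40%).

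The interaction term with the lowest unadjusted p among the members was that of Mrpl57. Its TCDD effect was -0.38 in WT and 0.59 in KO, and the difference was 0.97 (SE 0.19, 95% interval 0.51 to 1.43, limma unadjusted p = 0.00187, adjusted p = 0.998). Mrps5, a conserved small-subunit protein named here after its values were seen, read 7.38 and 6.94 on KO DMSO, 7.97 and 7.46 on KO TCDD, 7.37 and 7.34 on WT DMSO and 6.92 and 6.87 on WT TCDD. Both its WT TCDD arrays lay below its WT DMSO arrays, and its interaction term was 1.02 (limma unadjusted p = 0.0127, adjusted p = 0.998). Mrpl27 had the largest term, 1.19, with an interval from -0.68 to 3.05. Its term without WT TCDD replicate 1 was 0.325, that of Mrpl57 about 1.10 and that of Mrps5 1.04, and Mrps24 had the largest, 1.485.

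**Figure D3:**
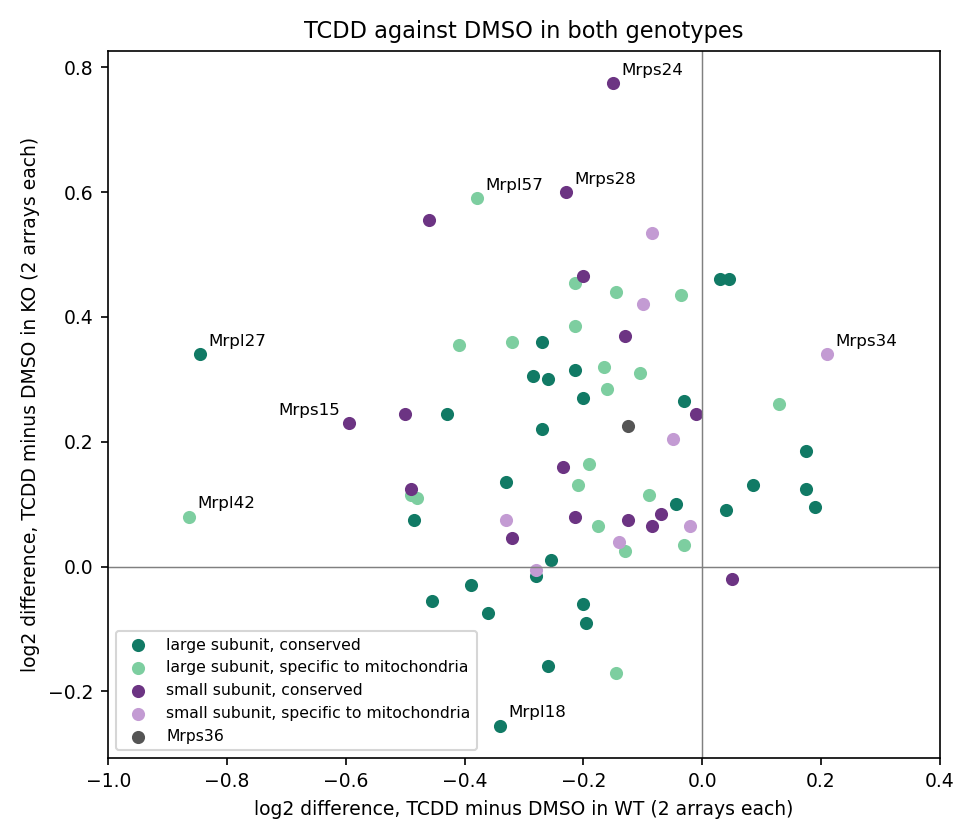
TCDD minus DMSO difference (log2) in KO against that in WT, 1 point per member (2 arrays a group). Of the 74 points, 54 lie in the quadrant of lower in WT and higher in KO, with Mrpl42 and Mrpl27 farthest to the low side in WT and Mrps24 highest in KO.

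By group means, KO TCDD was the highest of the 4 groups in 35 members (47.3%, against 29.5% of all genes) and WT DMSO in 30 (40.5%, against 23.1%). WT TCDD was the lowest in 38 members (51.4%, against 18.9%) and KO DMSO in 27 (36.5%, against 28.5%). Among genes at or above the median level, KO TCDD was the highest in 33.7% and WT DMSO in 28.2%. Among those genes WT TCDD was the lowest in 24.5% and KO DMSO in 27.6%. Without WT TCDD replicate 1, WT TCDD was the lowest in 30 members (40.5%, against 29.3% of all genes) and KO DMSO in 34 (45.9%, against 23.9%). WT DMSO was then the highest in 19 (25.7%, against 19.9%). Without KO DMSO replicate 2, KO DMSO was the lowest in 16 members (21.6%, against 28.8% of all genes). WT TCDD was then the lowest in 46 (62.2%, against 20.7%). The median deviation of the members from their own means, taken per array and averaged over the 2 arrays, was 0.10 ± 0.04 in KO TCDD, 0.06 ± 0.10 in WT DMSO, -0.08 ± 0.20 in KO DMSO and -0.12 ± 0.14 in WT TCDD (SD, n = 2). KO TCDD and WT DMSO differ by 0.04 and KO DMSO and WT TCDD by about 0.04, both less than the within-group SD of 0.13. WT DMSO and KO DMSO differ by 0.14, slightly more than that SD, and the values of their arrays overlap.

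Single arrays stood apart for the members. Their median deviation was 0.06 on KO DMSO replicate 1, -0.22 on KO DMSO replicate 2, 0.13 and 0.08 on the KO TCDD arrays, -0.01 and 0.13 on the WT DMSO arrays, -0.21 on WT TCDD replicate 1 and -0.02 on WT TCDD replicate 2. On KO DMSO replicate 2, 63 of 74 members read below their own mean, and on WT TCDD replicate 1, 59 did. Between them these 2 arrays held the lowest value of 52 members (24 and 28). The median deviation over all genes ran only from -0.06 to 0.04 across the arrays, although genes at or above the median level also stood low on KO DMSO replicate 2 (-0.11).

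**Figure D4:**
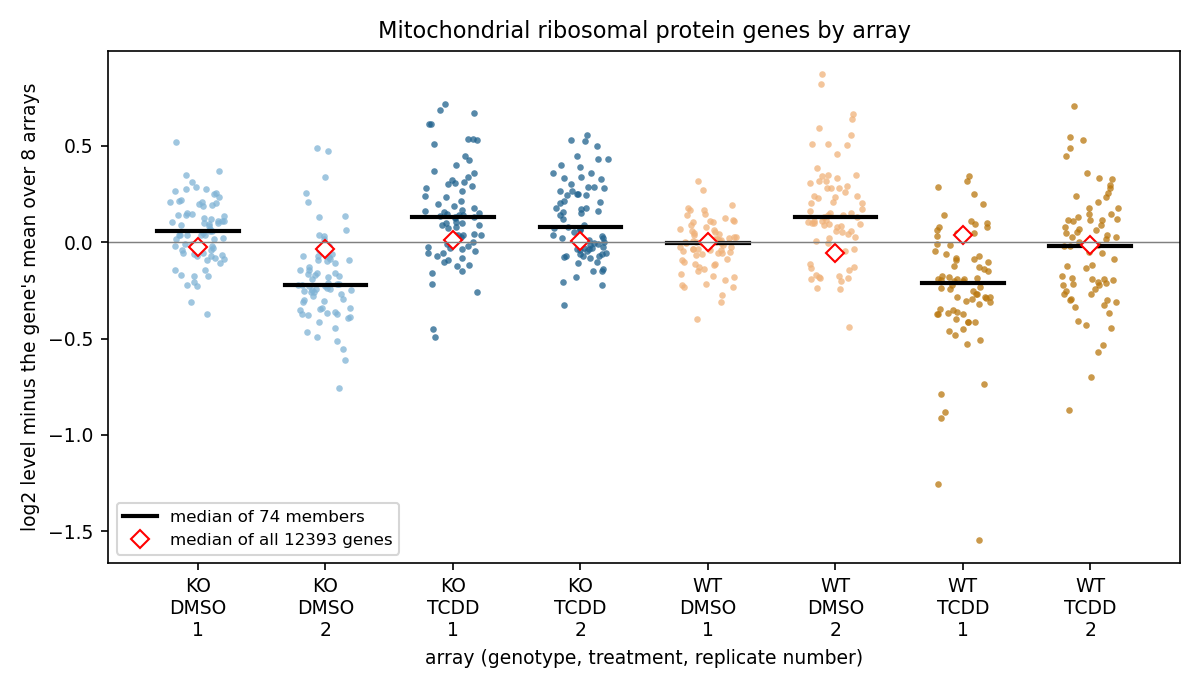
Deviation of each member from its own mean over the 8 arrays (log2), by array, with 1 point per member, their median as a line and the median of all genes as a diamond. The medians of KO DMSO replicate 2 (-0.22) and WT TCDD replicate 1 (-0.21) are the lowest, and that of KO TCDD replicate 1 (0.13) is the highest.

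Signs of RNA quality were set beside these arrays. The 3′ minus 5′ difference of the actin control probe sets was 4.56 on WT TCDD replicate 1 and 2.90 on WT DMSO replicate 2, the extremes of the 8 arrays. The first held the lowest value of 28 members and the second the highest value of 22. On KO DMSO replicate 2 it was 3.60, within the range of 3.30 to 3.82 of the remaining arrays. Its part in the members' values was not tested for the treatment effects.

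Both medians of the TCDD effect were nearer 0 without the arrays that stood low, as leaving out a low array of the lower group tends to do. Without WT TCDD replicate 1 the median in WT was -0.09 (23 higher, 50 lower, where 51.5% of genes at or above the median level read lower). Without KO DMSO replicate 2 the median in KO was 0.09 (51 higher, 22 lower, where 51.8% of such genes read higher). The arrays that stood high were also left out. The median in WT was -0.11 without WT DMSO replicate 2 (19 higher, 55 lower), and that in KO was 0.17 without KO TCDD replicate 1. The interaction had a median of 0.27 without WT TCDD replicate 1, 0.26 without KO DMSO replicate 2 and about 0.17 without both. In the last case 53 members were above 0 (71.6%) and 21 below. Above 0 were 54.5% of all genes and 52.9% of those at or above the median level.

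The members moved together across arrays to different degrees. Over the 8 arrays, the correlation of a member with the median of the other members had a median of 0.57. It was above 0.7 in 25 members and below 0 in 6. These correlations share arrays and their normalization and are descriptions. Mrpl2 (r = 0.91), Mrps16 (0.90) and Mrpl23 (0.90) followed the others most closely. Mrpl2, whose protein lies at the heart of the large subunit, read 7.68, 6.97, 7.84 and 7.41 in KO and 7.45, 7.79, 7.25 and 7.47 in WT, with its lowest values on KO DMSO replicate 2 and WT TCDD replicate 1. Mrpl1 (-0.41), Mrpl14 (-0.31) and Mrpl54 (about -0.24) ran the other way. Mrpl1 was highest on WT TCDD replicate 1, at 6.63 against 6.17 to 6.38 elsewhere.

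Members also differed in how far they ranged, from 0.19 for Mrpl39 to 2.13 for Mrpl42 between the lowest and highest array, with a median of about 0.73. Of the 33 members with several probe sets of their own, 17 had probe sets whose KO minus WT differences had opposite signs. None of the 53 further probe sets was called, and 30 of them lay below the median level. Of these 53, 32 read lower after TCDD in WT (34 without WT TCDD replicate 1), 37 higher after TCDD in KO and 33 had an interaction above 0. Among all genes, 42.7% read lower in WT (47.8% without that array), 56.8% higher in KO and 50.1% had an interaction above 0. For the probe sets used for the members, these counts were 64, 63 and 70 of 74.

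The rest of the mitochondrial translation pathway was read from lists of factors, tRNA synthetases, assembly proteins and other subunits. Of 59 listed genes 39 were measured, and none was called between KO and WT. Among them 18 read higher and 21 lower, with a median of -0.07. The genes named next were chosen after their values were seen, as those with the lowest p or the largest difference. Tufm, the elongation factor that delivers aminoacyl-tRNA, read 8.28, 8.33, 8.64 and 8.15 in KO and 8.14, 7.96, 7.62 and 7.78 in WT. Its KO arrays all lay above its WT arrays, as in 6.28% of all genes, and the difference was 0.47 (SE 0.14, limma adjusted p = 0.104). Nsun4, a methyltransferase of the mitochondrial ribosomal RNA, read 5.84, 5.13, 5.77 and 5.49 in KO and 5.98, 6.55, 6.12 and 6.33 in WT, a difference of -0.69 (SE 0.18, limma adjusted p = 0.0785). Its KO arrays all lay below its WT arrays, as in 6.71% of all genes, and its mean of 5.90 was below the median level. Dap3, a small-subunit protein without an Mrp symbol, read lower in KO by a difference of -0.38 (SE 0.12, limma adjusted p = 0.122).

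Tfam, which packages and helps transcribe mitochondrial DNA, differed by -0.89 (SE 0.37), and its WT arrays numbered 2 stood apart at 8.69 and 8.71 against 7.51 and 7.20 for those numbered 1. After TCDD, 30 of the 39 genes read lower in WT (median about -0.12) and 21 read higher in KO (median 0.04). All 7 translation factors read lower after TCDD in WT. Without WT TCDD replicate 1, 25 of the 39 (median about -0.10) and 6 of the 7 did. The interaction had a median of 0.23 over the 39 genes, with 30 above 0.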

How the data were processed

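Per the submitters' processing notes, the authors normalized the arrays with RMA in the affy package (versions and genome build are not given in the sources used here) and deposited log2 values per probe set. RNA was amplified before hybridisation, per the labels' protocols. Of 22690 probe sets, 64 Affymetrix controls were left out and 22626 tested with limma 3.58.1 (R 4.3.3, lmFit and eBayes) on the deposited log2 values, with Benjamini-Hochberg adjustment over all of them. A probe set was called at an adjusted p under 0.05. KO was compared with WT over 4 arrays each. TCDD effects and their interaction came from a model of the 4 group means. Genes were named from the platform annotation and matched to RefSeq by Entrez identifier (74 of 74 members). The number of arrays limits the precision, and p-values measure the spread between pools of animals. In the comparison of KO with WT, fitted without a treatment term, that spread also holds the differences between treatments within a genotype. The fit was tested on simulated data.

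Named members are the 5 with the largest differences in each direction between genotypes, those whose genotypes did not overlap, the 3 largest TCDD differences in each direction and genotype, and Mrps18a, Mrps30 and Mrps36. The rule named called genes from the other pathway lists, of which there were none. Genes of those lists, Mrps5 and the members most and least like the others were named after their values were seen. Members and lists were chosen with earlier results of these data known. Alternatives covered the threshold, normalization, array weights, probe set choice, replicate block, treatment subsets and leaving out arrays. The labels do not pair the samples by replicate number. Deviations of same-numbered arrays correlated at 0.63 between WT DMSO and WT TCDD, and from -0.29 to 0.22 between the other pairs of groups. Same-numbered WT arrays correlated at 0.988 and 0.986 across treatments, beside 0.979 and 0.967 between the arrays of a WT group. The main comparison of TCDD with DMSO in WT did not take this likeness into account.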

Additional observations from a re-analysis of the deposited data

Results flagged for a closer look

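Mrps36, whose protein is now placed in the 2-oxoglutarate dehydrogenase complex, had 1 WT array apart from the others: WT TCDD replicate 2 read 6.92, against 7.12 to 7.15 on the other 3. The gap was 0.87 of the range of the 4 arrays, above the critical value of Dixon's test at the 95% level. Chance gives about 1 in 20 such groups, and 44 groups of 4 arrays were checked for the named genes. Over all members, 6 of 148 groups were flagged. The 4 arrays hold both treatments, which the test does not take into account.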

How the results depend on the processing

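No member was called lower in KO under any alternative run, and no TCDD or interaction call appeared under any. The number of members called higher in KO, 0 as reported, was 5 at an adjusted p of 0.10 (Mrpl12, Mrpl38, Mrps7, Mrps11, Mrps18a), 5 with array weights, 2 after quantile normalization again, 2 with the actin 3′ to 5′ difference as a covariate, and 1 each with arrays centred on their medians or with the mean over a gene's probe sets. It was 0 to 1 when single arrays were left out (Mrps11 without KO DMSO replicate 1, limma adjusted p = 0.0431). Of the other pathway genes, 1 was called lower at 0.10 (Nsun4) and 1 with the actin covariate (Tfam). The members' median KO minus WT difference was -0.138 on DMSO arrays and 0.218 on TCDD arrays. That of the interaction was 0.260 to 0.522 when single arrays were left out, and 0.165 without both arrays lowest for the members, an alternative chosen after seeing the data. Between genotypes, Mrpl27 turned to -0.070 on DMSO arrays. On TCDD arrays Mrps15 turned to 0.120, Mrps14 to 0.025 and Mrps36 to 0.095. Without both WT arrays numbered 2, Mrpl18 turned to 0.073, Mrps15 to 0.030 and Mrps14 to 0.263. With single arrays left out, the TCDD effect in WT ran from -1.705 to 0.015 for Mrpl27, -0.010 to 0.430 for Mrps34 and -0.160 to 0.540 for Mrpl11, the first 2 turning without WT TCDD replicate 1 (also with KO DMSO replicate 2 left out) and Mrpl11 without WT TCDD replicate 2. Mrpl11 read -0.040 without both WT arrays numbered 2. In KO it ran from -0.820 to 0.310 for Mrpl18 and from -0.345 to 0.025 for Mrpl32, both turning without KO DMSO replicate 1, and from -0.345 to 0.005 for Mrps18a, turning without KO DMSO replicate 2 (also with WT TCDD replicate 1 left out) or KO TCDD replicate 2. The cause was not tested. With the replicate number as a block, a pairing the labels do not support, 0 members were called in each comparison. The KO minus WT median stayed at 0.012. Each group has 1 array of each number, so this block cannot change a difference. With 2 arrays a group, a lone remaining array is assumed to vary like the other groups.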
